A study of Mus musculus with 6 samples.

Results

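The transcription factor p53 and 33 genes known as its targets or regulators were examined in Prmt1-null germinal center-like B cells, gene by gene. The 34 genes were picked by symbol from the 39017 genes of a table of raw exon counts, all 34 were found, and all had enough counts to be tested. Cdkn1a, the gene of the cell cycle inhibitor p21 and the best known p53 target, was not among them and is given for comparison. The libraries were made from iGBs, which are splenic B cells grown on 40LB feeder cells, a fibroblast line that displays CD40L and secretes BAFF, with IL-4 added, for 3.5 days. There were 3 Control mice (Cγ1-cre) and 3 Prmt1-null mice (Prmt1 F/F Cγ1-cre), all of the C57BL6/J strain, with 1 library per mouse and with 2 females and 1 male in each group. Both genotypes carried the Cre recombinase, which acts in cells that transcribe the Cγ1 gene segment, so cells that had not yet excised the floxed Prmt1 exons could be present in the Prmt1-null cultures. By day 3 of such cultures the study saw less of the methyl mark that Prmt1 places, and no noticeable outgrowth of unexcised cells. The feeder cells were removed by an antibody and beads before RNA was extracted. The labels give no age for the mice.

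p53 is a DNA-binding protein that is kept at a low level because Mdm2, a ubiquitin ligase, marks it for degradation, while Mdm4 holds back its activity. DNA damage and other stresses free p53 from these partners, and it then raises genes that halt the cell cycle, repair DNA, restrain growth signals or trigger death, Mdm2 included. In germinal center B cells the p53 response is known to be held down, because these cells divide fast and make DNA breaks while they mutate and switch their antibody genes. p53 is controlled mostly as a protein, which RNA counts do not measure. Prmt1, the deleted gene, encodes the main enzyme that places asymmetric dimethylation on arginines of other proteins.

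p53 binds a DNA element made of a pair of half-sites, and the sequences near the start sites of these genes show where such letters occur. RefSeq windows of 300 bases, running from 250 bases before to 50 bases after a start site (GRCm38.p6), were at hand for 25 of the 34 genes, in 33 windows. The p53 half-site of 10 letters was searched as an exact match. The half-site can be read on either strand. It occurred in 11 of 33 windows (33.3%) and in 10 of 25 genes (40%), against 8.36% of all 32851 windows and 9.55% of all 27025 genes. The genes holding it were Aen, Ccng1, Ei24, Gtse1, Mdm2, Ppm1d, Rchy1, Sesn1, Siva1 and Trp53. Shown here are the first matches of the 4 holders with the smallest p in the comparison of the genotypes, each with 10 bases on either side and with the half-site in capitals.
Siva1, chr12:112644600-112644629, plus strand: gctgtgacatAAACTAGCCCcgccccaaca
Gtse1, chr15:85859945-85859974, plus strand: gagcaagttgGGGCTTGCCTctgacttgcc
Aen, chr7:78895927-78895956, plus strand: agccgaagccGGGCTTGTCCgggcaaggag
Sesn1, chr10:41887256-41887285, plus strand: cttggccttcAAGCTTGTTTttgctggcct

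A full site was counted where a pair of half-sites lay at most 13 bases apart with at most 2 mismatches in their 20 letters. It was found in 3 of 25 genes (12%), against 4.71% of all genes. The closest matches, with 1 mismatch each, were those of Ccng1 and Gtse1, and Sesn1 had 2 mismatches. Only 0.627% of all windows held a full site with at most 1 mismatch. The stretch of Ccng1, the gene with the highest level of the 34, and that of Gtse1 are given with the 20 letters in capitals.
Ccng1, chr11:40755457-40755486, minus strand: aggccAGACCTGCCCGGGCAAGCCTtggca
Gtse1, chr15:85859940-85859969, plus strand: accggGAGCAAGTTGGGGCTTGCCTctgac

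The genes with an adjusted p under 0.05 between the genotypes in edgeR's test were others, namely Phlda3, Gdf15 and Ddit4. Gdf15 entered that test only through its Prmt1-null libraries, so it had to differ. The windows of these genes held no exact half-site. The bases upstream of their GENCODE transcripts are shown, with the pair of half-sites that had the fewest mismatches in capitals. In the windows shown, these pairs had 5 mismatches in Phlda3 and Gdf15 and 6 in Ddit4, as few or fewer than which were found in 68.7% and 86.7% of all windows. A second window of Gdf15, which lies inside the gene as GENCODE draws it and is not printed, held a pair with 4 mismatches, and 40.4% of all windows held one with as few or fewer. No match says only that the letters are not in these windows, and p53 can bind elsewhere in a gene.
Phlda3, chr1:135765835-135766084, plus strand: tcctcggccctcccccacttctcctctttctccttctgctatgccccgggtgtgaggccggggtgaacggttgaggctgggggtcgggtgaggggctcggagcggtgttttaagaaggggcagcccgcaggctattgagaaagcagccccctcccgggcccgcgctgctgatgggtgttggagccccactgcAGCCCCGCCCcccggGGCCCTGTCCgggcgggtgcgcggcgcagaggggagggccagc
Gdf15, chr8:70632457-70632706, minus strand: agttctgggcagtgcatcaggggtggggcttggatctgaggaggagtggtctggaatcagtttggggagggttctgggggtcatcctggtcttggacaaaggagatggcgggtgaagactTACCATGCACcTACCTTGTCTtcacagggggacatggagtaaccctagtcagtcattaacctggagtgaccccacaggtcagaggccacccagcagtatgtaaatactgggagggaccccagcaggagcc
Ddit4, chr10:59951835-59952020, minus strand: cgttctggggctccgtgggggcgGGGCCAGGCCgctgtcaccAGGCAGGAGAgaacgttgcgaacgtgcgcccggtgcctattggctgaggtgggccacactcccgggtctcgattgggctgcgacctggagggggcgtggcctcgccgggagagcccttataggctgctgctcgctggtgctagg

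The libraries held between 45343250 and 62774232 counts in total, and the scaling factors of the normalization lay between 0.985 and 1.013. Values are normalized counts, which are counts divided by the library's size after normalization and set to the mean size of the 6 libraries. Of 18268 genes tested, 218 (1.19%) had an adjusted p under 0.05 in the quasi-likelihood test of edgeR after Benjamini-Hochberg adjustment. Prmt1 itself had 3964, 3924 and 4838 normalized counts in Control and 1745, 1478 and 1477 in Prmt1-null iGBs. Its groups lay far apart, with 36.9% of the Control level still counted in Prmt1-null iGBs (log2 fold change −1.44, standard error 0.095, adjusted p = 1.11e-05). The 7 B cell markers summed to 343624 to 359987 normalized counts in Control and 356096 to 374315 in Prmt1-null libraries, and the lowest of them, Pax5, had at least 10284 in every library. In bulk RNA, a smaller share of cells that express a gene and less of its RNA per cell cannot be told apart.

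Of the 34 genes, 3 (8.82%) had an adjusted p under 0.05, and all 3 were higher in Prmt1-null iGBs, where 0.591% of all genes tested were called higher and 0.602% lower. They were Phlda3, a pleckstrin homology domain protein that restrains the survival kinase Akt, Gdf15, a secreted stress hormone, and Ddit4, an inhibitor of the mTORC1 growth pathway also called Redd1. Gdf15 entered the test through its counts in the Prmt1-null libraries and so had to differ. Without it the count was 2 of 33 genes (6.06%). As many of the 34 log2 fold changes were positive as negative, 17 and 17. Their median was 0.003 on the log2 scale, against −0.001 over all genes tested, and their median absolute value was 0.15, against 0.14. Without Gdf15, 16 were positive and 17 negative, with a median of −0.012. Without Gdf15 and Perp, whose filtering is described below, there were 15 and 17, with a median of −0.024.

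The normalized counts of the genotypes did not overlap in 15 of the 34 genes (44.1%), a state that 19.9% of all genes tested shared. Of these 15, 9 were higher in all Prmt1-null libraries (9.95% of all genes tested) and 6 were lower (9.92%). At an unadjusted p under 0.05 there were 14 of the 34 genes (41.2%), 8 higher and 6 lower, against 13.5% of all genes tested. Without Gdf15, which could not overlap, the counts were 14 of 33 (42.4%) and 13 of 33 (39.4%). Perp, too, met the filter through its Prmt1-null libraries, with 1 Control library above it, and without both genes the counts were 13 of 32 (40.6%) and 12 of 32 (37.5%). These shares lay above those over all genes, in both directions, while most of the differences were small and missed the adjusted threshold. The 34 genes were chosen with earlier results of these data known, so these shares describe the list and test nothing.

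**Figure D1:**
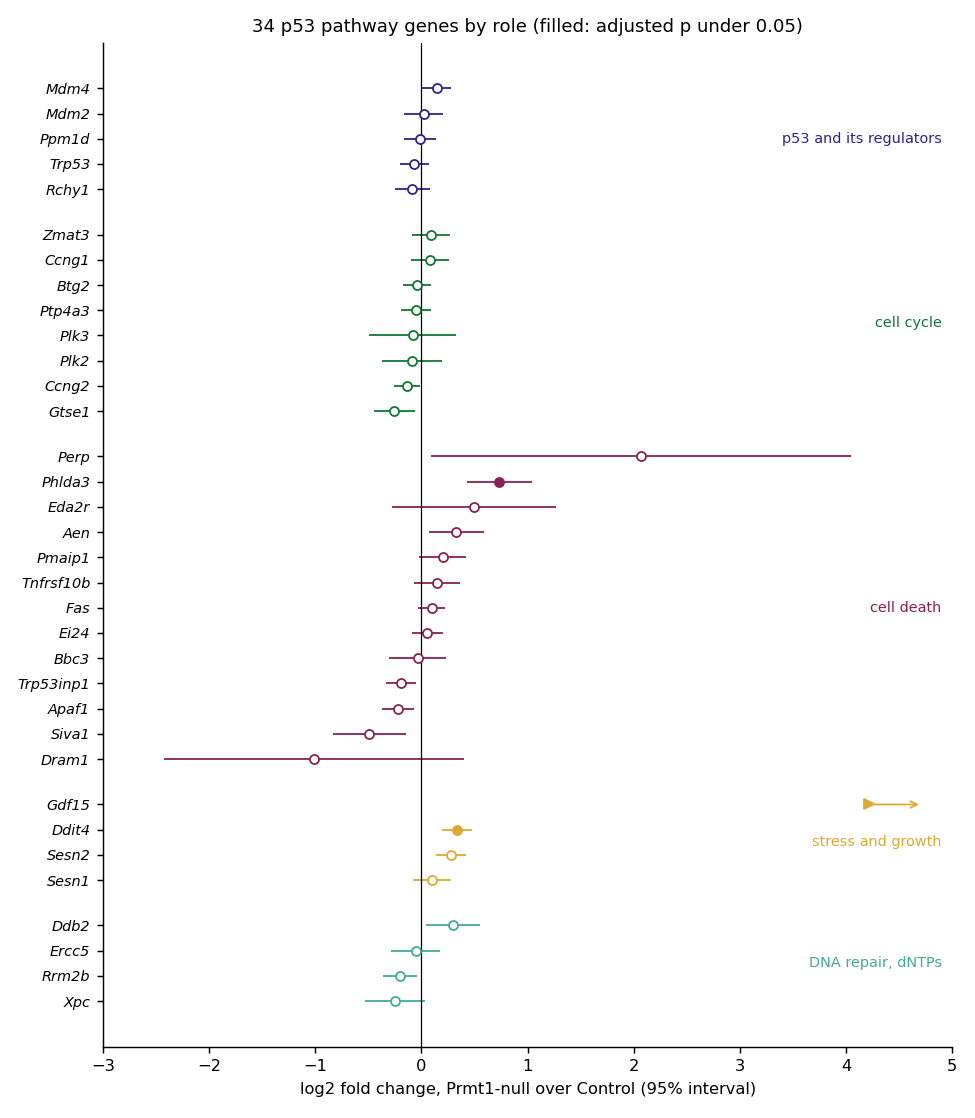
The log2 fold change of Prmt1-null over Control (horizontal axis) is drawn for the 34 genes in 5 groups by role, as a point with its 95% interval, filled where the adjusted p was under 0.05. Gdf15, which had no count in Control libraries, is drawn at its lower bound of 4.22 with an arrow, and the points of Phlda3 and Ddit4 at 0.73 and 0.33 are the other filled ones.

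The genes at the core of the pathway are p53 and 4 proteins that limit it. Trp53 (chr11:69580359-69591873, plus strand), which encodes p53, had 8419.8, 8457 and 9144 normalized counts in Control and 7765, 8519.6 and 8569 in Prmt1-null libraries. The groups overlapped, and the log2 fold change was −0.07 (95% interval −0.20 to 0.07, adjusted p = 0.712). Mdm2 (chr10:117688875-117710758, minus strand), both the ligase that degrades p53 and one of its targets, had 10387, 8161 and 8206 against 9306, 8812 and 8990.5. The male Control library was the highest of all 6, and the other Control libraries were the lowest. The log2 fold change of Mdm2 was 0.02 (95% interval −0.16 to 0.20, adjusted p = 0.947).

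Mdm4 (chr1:132959484-133030561, minus strand), the relative of Mdm2 that binds p53 without degrading it, had 5295, 5298 and 5004 normalized counts in Control and 5969, 5986 and 5289.7 in Prmt1-null libraries. Both Prmt1-null females were above all Control libraries and the Prmt1-null male lay among them. The log2 fold change was 0.14 (95% interval 0.01 to 0.28, adjusted p = 0.334). Ppm1d, the phosphatase Wip1 that removes activating phosphates from p53, had a log2 fold change of −0.01 and Rchy1, another ubiquitin ligase for p53, of −0.09. None of the 5 core genes passed the adjusted test (1.19% of all genes tested did) and in none were the groups apart (19.9% of all genes tested).

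**Figure D2:**
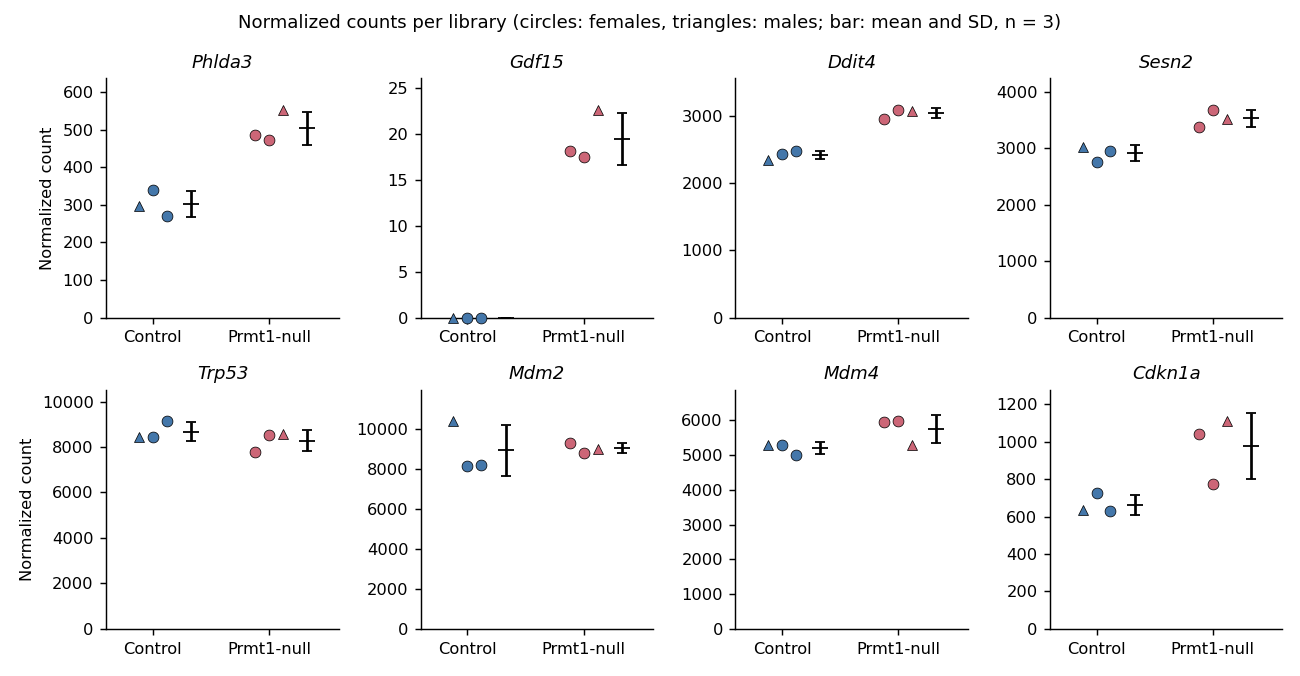
Normalized counts (vertical axes, from 0) of Phlda3, Gdf15, Ddit4, Sesn2, Trp53, Mdm2, Mdm4 and Cdkn1a in the 3 Control and 3 Prmt1-null libraries, with females as circles, males as triangles, and the mean and SD (n = 3) as a bar. Prmt1-null libraries lie above all Control libraries in the upper row and in Cdkn1a, and the genotypes overlap in Trp53, Mdm2 and Mdm4.

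The called genes were 2 stress and growth genes and 1 cell death gene. The 4 stress and growth genes include Gdf15, which had to differ. Of the other 3, all had positive log2 fold changes, between 0.10 and 0.33, and 1 passed the adjusted test, against 1.19% of all genes tested. These 4 proteins act where stress meets growth: Ddit4, Sesn1 and Sesn2 hold mTORC1 down, the sestrins also take part in the defence against oxidants, and Gdf15 is released by stressed cells. Besides p53, Ddit4, Sesn2 and Gdf15 are known targets of the factor Atf4 in the response to amino acid shortage and endoplasmic reticulum stress.

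Ddit4 (ENSMUSG00000020108, chr10:59949669-59951834, minus strand) had 2349, 2430.2 and 2475 normalized counts in Control and 2953, 3093 and 3079 in Prmt1-null libraries. The libraries of each genotype lay close together and the genotypes were well apart. The means were 2418 ± 64.0 and 3042 ± 76.7 (SD, n = 3). On the log2 scale Ddit4 rose by 0.33, with a standard error of 0.0659 and an adjusted p of 0.0296. The rise was seen in females (log2 ratio 0.30) and in the males (0.39).

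Sesn2 (ENSMUSG00000028893, chr4:132492032-132510501, minus strand) had 3030.1, 2758 and 2958 normalized counts in Control and 3383, 3689 and 3529 in Prmt1-null libraries. Every Prmt1-null library was above every Control library, yet the adjusted p missed the threshold (log2 fold change 0.28, standard error 0.0672, adjusted p = 0.0646). DESeq2's Wald test gave Sesn2 an adjusted p of 0.00945. Its paralog Sesn1 had 1709, 1715 and 1948 against 1857, 1926 and 1969, so that 1 Control library lay among the Prmt1-null ones. The log2 fold change of Sesn1 was 0.10 (95% interval −0.08 to 0.28, adjusted p = 0.670), and whether the sestrins differed from each other was not tested.

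Gdf15 (ENSMUSG00000038508, chr8:70629393-70632456, minus strand) had no count in any of the 3 Control libraries and 18, 19 and 24 raw counts, or 18.2, 17.5 and 22.7 normalized counts, in the Prmt1-null libraries. It was thus seen in every Prmt1-null library and in no Control library, at a level that was low even where it was found. With 3 counts over the whole Control group as the limit that a count of 0 allows, the level was at least 18.6-fold higher in Prmt1-null iGBs. The adjusted p was 0.0293, but a gene that enters the test only through the group where it is high has to differ, so this p adds no support. A total of 61 counts carry this result. This limit covers counting error only, since PCR copies of a molecule were not told apart.

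Feeder cells are fibroblasts, so their markers were read beside the low genes. The 14 fibroblast markers summed to 1108 to 1436 normalized counts in Control and 1340 to 1610 in Prmt1-null libraries, and these ranges overlap. None of the 12 with enough counts passed the adjusted test (1.19% of all genes tested did). Postn and Lum were at 0 in all 6 libraries. Of the 12 tested, 8 had positive log2 fold changes and 4 negative, with a median of 0.19. Col1a1 had 332, 396 and 339 against 475, 429.6 and 546 and Sparc was also higher in all Prmt1-null libraries, while Acta2 was lower in all of them. The 7 myeloid markers summed to 801 to 1140 in Control and 1181 to 1293 in Prmt1-null libraries, ranges that do not overlap. Without Adgre1 the other 6 summed to 501 to 787 and to 523 to 760, which overlap. Of the 6 with enough counts, 4 had positive log2 fold changes and 2 negative, with a median of 0.12. Adgre1 was called higher, 1 of 6 (16.7%) against 1.19% of all genes tested (log2 fold change 0.73, adjusted p = 0.0319). The groups of the other 5 overlapped. Their log2 fold changes were 0.33 for Csf1r, 0.14 for Fcer1g, 0.11 for Itgam, −0.34 for Tyrobp and −0.75 for Lyz2. Cd14, which was not tested, had at most 1.76 normalized counts in any library, and Lyz2 had 0, 86.9 and 24.2 against 34.4, 20.3 and 12.3. The 6 T cell markers summed to 30.4 to 139 in Control and 39.7 to 146 in Prmt1-null libraries. The part of such cells in the counts of Gdf15 and the other low genes was not tested.

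Among the 13 cell death genes, 8 had groups that did not overlap, with Prmt1-null above Control in 5 and below it in 3, where 9.95% and 9.92% of all genes tested were so placed. Without Perp there were 7 of 12, of which 4 were above and 3 below. In this group 1 gene passed the adjusted test, as did 1.19% of all genes tested. That gene was Phlda3 (ENSMUSG00000041801, chr1:135766119-135769136, plus strand). Its normalized counts were 298, 339 and 269.9 in Control and 486, 471 and 553 in Prmt1-null libraries. The lowest Prmt1-null library was well above the highest Control library. The means were 302 ± 34.7 and 503 ± 43.6 (SD, n = 3), which is a level of 167% of Control (log2 fold change 0.73, standard error 0.144, adjusted p = 0.0275). The log2 ratio was 0.65 in females and 0.89 in the males.

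The mitochondrial arm of p53-driven death runs through Bbc3 (Puma) and Pmaip1 (Noxa), which free Bax and Bak to open mitochondria, and Apaf1, which then assembles the caspase-activating apoptosome. Bbc3 had a log2 fold change of −0.04 (95% interval −0.30 to 0.23) with overlapping groups. Pmaip1 had 1040.0, 1033 and 1059 normalized counts in Control and 1184, 1327 and 1086 in Prmt1-null libraries. The Control libraries were nearly alike and the Prmt1-null libraries were all above them but scattered (log2 fold change 0.20, adjusted p = 0.434). Apaf1 went the other way, with 4414, 3877 and 3986 against 3299.8, 3607 and 3618. Its groups did not overlap, and the adjusted p was 0.153 (log2 fold change −0.22).

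Of the death receptors, Fas, the receptor through which T cells can kill germinal center B cells, had a log2 fold change of 0.10 (adjusted p = 0.510), and Tnfrsf10b, a receptor for the ligand Trail, of 0.15 (adjusted p = 0.572). The groups of both overlapped. Eda2r, a receptor of the same family, was scarce, with 43.7, 36.0 and 55.1 normalized counts against 60.8, 57.2 and 71.8. All Prmt1-null libraries were above all Control libraries by a small margin (log2 fold change 0.50, standard error 0.361, adjusted p = 0.605).

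Siva1, an adaptor of the receptor Cd27 that promotes apoptosis, had 309.8, 409 and 374 normalized counts in Control and 285, 244 and 250.5 in Prmt1-null libraries. All Prmt1-null libraries were lower (log2 fold change −0.49, standard error 0.159, adjusted p = 0.170), which was the largest negative value among those of the 34 genes counted over 100 on average. Aen, a nuclease that digests DNA in dying cells, had 642, 752 and 597 against 773, 864 and 866. All Prmt1-null libraries were higher, the lowest by a narrow margin (log2 fold change 0.33, adjusted p = 0.231). Trp53inp1, a partner of p53 in stress and autophagy and one of the most abundant of the 34, had 24580.1, 21226 and 22654 against 20286, 19736 and 20007. Here the Prmt1-null libraries were all lower and close to each other (log2 fold change −0.19, adjusted p = 0.204).

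Perp and Dram1 were near the lower end of detection. Perp, a membrane protein of desmosomes that is linked to apoptosis, had 12, 0 and 4 raw counts in Control and 30, 18 and 32 in Prmt1-null libraries, or 14.6, 0 and 4.41 against 30.4, 16.6 and 30.2 normalized counts. The groups did not overlap, but the lowest Prmt1-null library was close to the highest Control library (log2 fold change 2.07, standard error 0.920, adjusted p = 0.339). Dram1, a lysosomal protein that promotes autophagy, had 58.3, 12.3 and 28.6 against 10.1, 16.6 and 21.7. The groups overlapped, and the male Control library was the highest (log2 fold change −1.01, standard error 0.656, adjusted p = 0.544). The last gene of the group, Ei24, an endoplasmic reticulum protein, had a log2 fold change of 0.06.

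None of the 8 genes that act on the cell cycle and proliferation passed the adjusted test (1.19% of all genes tested did). Their log2 fold changes lay between −0.25 and 0.09. The groups of 2 of 8 (25%) did not overlap, both lower in Prmt1-null iGBs, which is near the 19.9% of all genes tested. Gtse1, which carries p53 out of the nucleus in the second gap phase of the cycle and binds microtubules, had 1699, 1528 and 1616 normalized counts in Control and 1422, 1283 and 1353 in Prmt1-null libraries. All Prmt1-null libraries lay under all Control libraries (log2 fold change −0.25, adjusted p = 0.216). Ccng2, a cyclin that inhibits the cycle, had 5275, 5335 and 5740.4 against 4924, 4981 and 4965. The Prmt1-null libraries were lower and almost equal (log2 fold change −0.14, adjusted p = 0.306).

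Its relative Ccng1, cyclin G1, one of the genes most directly driven by p53, had a log2 fold change of 0.08 (95% interval −0.10 to 0.26), and Zmat3, an RNA-binding protein with tumor-suppressing activity, of 0.09. Btg2, an antiproliferative protein that binds Prmt1, had a value of −0.04, Plk2 and Plk3, kinases of the polo family that answer to stress, of −0.09 and −0.08, and Ptp4a3, a phosphatase, of −0.05. The groups of all 6 overlapped.

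In the DNA repair group, 2 of 4 genes had groups that did not overlap, in opposite directions (19.9% of all genes tested did not overlap). None of the 4 passed the adjusted test (1.19% of all genes tested did). Ddb2, which recognises ultraviolet damage, had 729, 633 and 790.0 normalized counts in Control and 885, 937 and 820.5 in Prmt1-null libraries. All Prmt1-null libraries were higher (log2 fold change 0.30, adjusted p = 0.275). Rrm2b, the p53-inducible subunit of ribonucleotide reductase that supplies nucleotides for repair, had 2113, 2076 and 2102 against 1782, 1859 and 1834. Both groups were tight and the Prmt1-null libraries were lower (log2 fold change −0.20, adjusted p = 0.241). Xpc, the other damage sensor of nucleotide excision repair, had a log2 fold change of −0.25 (adjusted p = 0.445) and Ercc5, a nuclease that cuts beside a lesion, of −0.06, both with overlapping groups. Exons of Ddb2, Rrm2b, Rchy1, Plk3 and Ei24 overlap those of a gene on the opposite strand, and since the strand setting of the counting is not given in the sources used here, the values of these 5 genes are uncertain. The same holds for Cdkn1a, Setd7, Bid, Tap1 and Pax5, which are given for comparison and also overlap exons on the opposite strand.

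Per kilobase of exon, the 34 genes covered a wide range of levels. Ccng1 was at the top with a mean of 9533 normalized counts per kilobase over the 6 libraries, followed by Trp53inp1 with 3307, Fas with 2932, Trp53 with 2096, Btg2 with 2061 and Mdm2 with 1766. Ddit4 came next with 1555 and Sesn2 was twelfth with 928, while Phlda3 had 258. The last 4 were Eda2r with 9.18, Perp with 8.21, Dram1 with 8.09 and Gdf15 with 5.26, set apart from Plk3 with 95.1. Of the 33 pairs of neighbours in this order, 27 had ranges over the libraries that overlapped, and the order within those pairs is not settled.

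**Figure D3:**
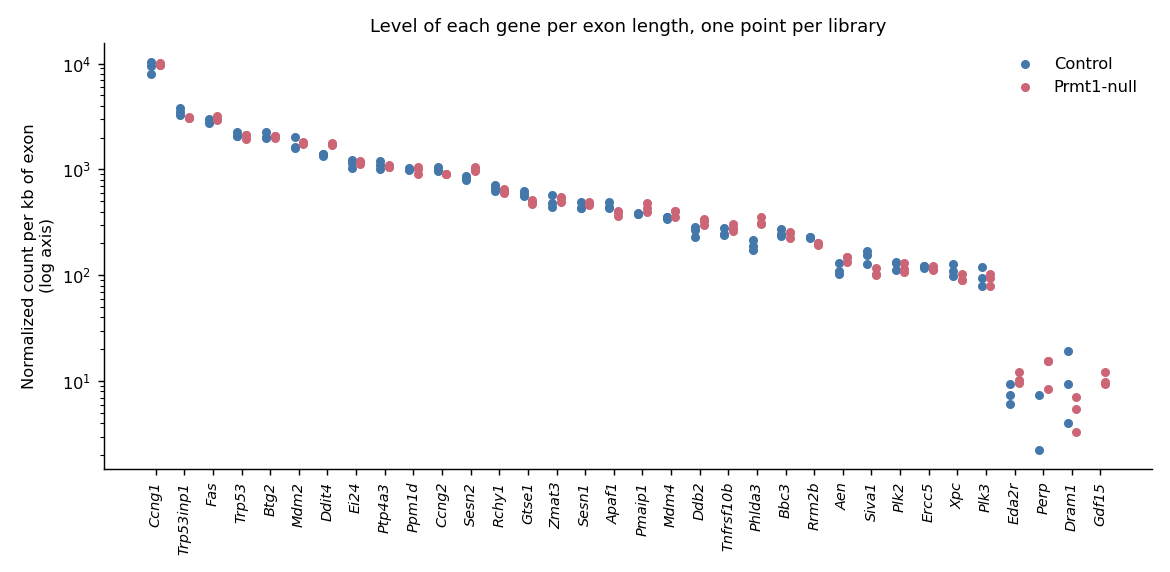
Normalized counts per kilobase of exon (vertical log axis) of the 34 genes in falling order of their mean, with 1 point per library, Control in blue and Prmt1-null in red. The levels run from 9533 for Ccng1 to 5.26 for Gdf15, and values of 0, which a log axis cannot show, are left out for the 3 Control libraries of Gdf15 and 1 Control library of Perp.

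Cdkn1a had 635, 724 and 630.2 normalized counts in Control and 1043, 774 and 1111 in Prmt1-null libraries. All Prmt1-null libraries were higher, with 1 of them close to Control, and the adjusted p was 0.0749 (log2 fold change 0.56, standard error 0.138). DESeq2's Wald test gave 0.00499. Its value lay between those of Phlda3 and Ddit4, and the differences between these genes were not tested.

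Other genes of the pathway were read from 3 lists. Of 23 genes that act on p53 (kinases, acetylases, ligases, methylases and ribosomal proteins), 1 (4.35%, against 1.19% of all genes tested) was called, Prmt5, a methyltransferase that dimethylates arginines symmetrically and can modify p53. It had 5542, 5607 and 5789 normalized counts in Control and 6531, 7106 and 6762 in Prmt1-null libraries, so that the groups were well apart (log2 fold change 0.27, standard error 0.0574, adjusted p = 0.0396). Next came the lysine methyltransferase Setd7 with a log2 fold change of −0.15 (adjusted p = 0.247) and the kinase Hipk2 with −0.14 (adjusted p = 0.291). The median over this list was −0.03, and 3 of 23 genes (13.04%) had groups that did not overlap, against 19.9% of all genes tested.

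Of 32 further p53 targets, 31 had enough counts and none passed the adjusted test (1.19% of all genes tested did). An unadjusted p under 0.05 was seen in 5 of them. Lif, with at most 4.05 normalized counts in any library, was the one not tested. The smallest p-values were those of the thiamine transporter Slc19a2 (log2 fold change 0.37, adjusted p = 0.151), the death agonist Bid (0.17, adjusted p = 0.198) and the peptide transporter Tap1 (0.17, adjusted p = 0.310). The median was 0.05, and 5 of 31 genes (16.1%) had groups that did not overlap, against 19.9% of all genes tested. The share at an unadjusted p under 0.05 was also 16.1%, against 13.5%.

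None of the 22 cell cycle genes known to be lowered when p21 activates the repressive DREAM complex was called (1.19% of all genes were). The 22 genes, also chosen with earlier results of these data known, leaned lower. Of these, 20 had negative log2 fold changes, with a median of −0.16 against −0.001 over all genes, and 9 (40.9%) were lower in all Prmt1-null libraries, as 9.92% of all genes were. The mitotic cyclin Ccnb2 had 5475, 5454 and 5581 normalized counts against 4297, 4624 and 4909 (log2 fold change −0.26, adjusted p = 0.0678). Aurkb, a mitotic kinase, had a log2 fold change of −0.27 (adjusted p = 0.0728) and Bub1b, a spindle checkpoint kinase, of −0.21 (adjusted p = 0.113). The log2 fold change of Gtse1 given above, −0.25, was also negative. It lay within this list's range of −0.27 to 0.12, and the difference was not tested.

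The 7 plasma cell markers, read because iGBs can turn into plasma cells, summed to 54717 to 61305 normalized counts in Control and 62742 to 68026 in Prmt1-null libraries. These ranges do not overlap. Derl3, a protein of the secretory pathway, was the 1 of 6 tested (16.7%, against 1.19% of all genes) that was called (log2 fold change 0.59, adjusted p = 0.0166). Most of the summed level came from the factors Irf4 (log2 fold change 0.16, overlapping groups) and Xbp1 (0.29, adjusted p = 0.0571, groups apart). The groups of Sdc1, Prdm1 and Jchain overlapped, at log2 fold changes of 0.52, 0.29 and −0.09. Of the 6 markers tested, 5 had positive values, with a median of 0.29, and Tnfrsf17 had at most 3.78 normalized counts in any library. The part of cell state in the values of Ddit4, Sesn2, Phlda3 and the DREAM genes was not tested.

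**Figure D4:**
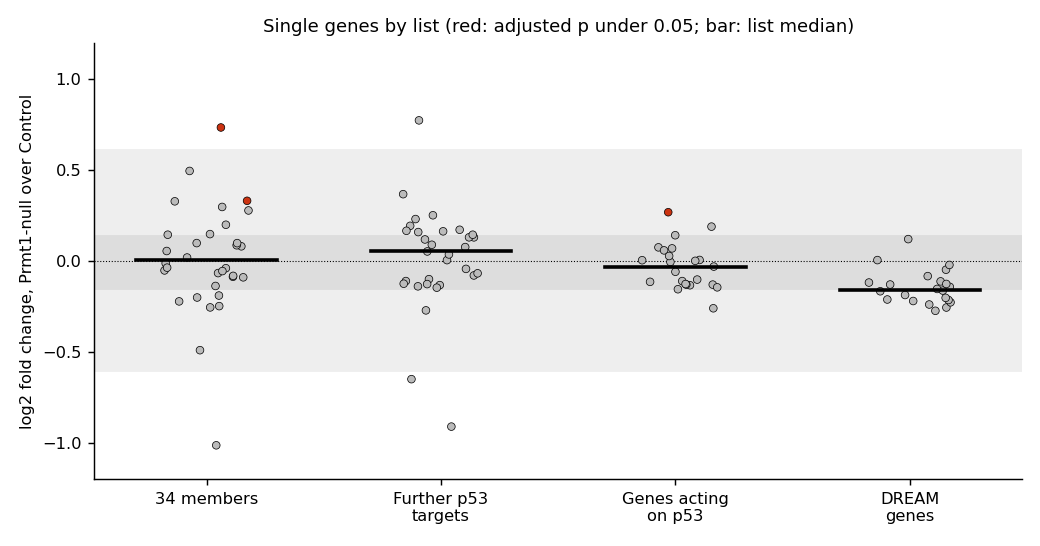
The log2 fold change of single genes (vertical axis) is shown for the 34 genes, the 31 further targets, the 23 genes acting on p53 and the 22 DREAM genes, with called genes in red and the list median as a bar. Grey bands hold the 25th to 75th and the 5th to 95th percentiles of all genes tested, Gdf15 and Perp lie above the axis, and the medians are 0.003, 0.05, −0.03 and −0.16.

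In edgeR's test the adjusted p-values of the called genes were close to the threshold. DESeq2's Wald test, which called 746 of all genes, gave 0.000478 for Phlda3 and 0.000617 for Ddit4. Libraries were left out in edgeR only. With 1 library left out in turn, Phlda3 had adjusted p-values from 0.05003 to 0.130 and was under 0.05 in 0 of 6 runs. Gdf15 had 0.0563 to 0.151 and was also never under the threshold, and Ddit4 had 0.0248 to 0.165 and passed in 1 of 6 runs, without Control replicate 3. The directions held in all of these runs, in which the log2 fold change was 0.66 to 0.83 for Phlda3 and 0.31 to 0.36 for Ddit4. With all libraries kept, Phlda3 was called in 7 of 7 other ways of processing the counts, Ddit4 in 6 and Sesn2 in 2. Gdf15 was called in 5. It entered the test only through its Prmt1-null libraries and had to differ, so none of its p-values adds support.

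**Figure D5:**
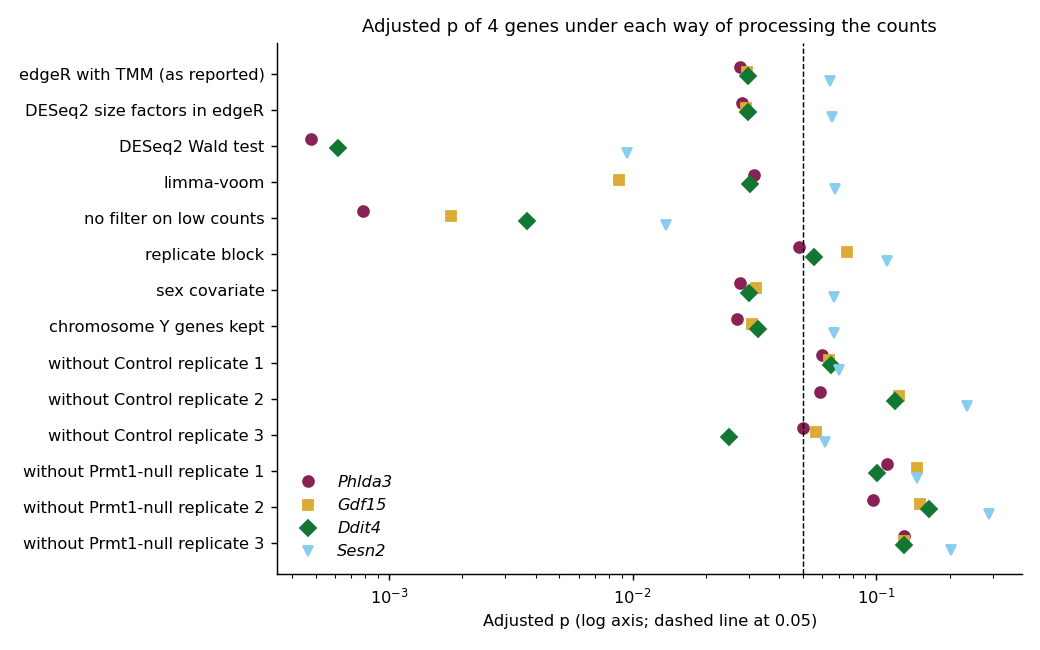
Adjusted p (horizontal log axis, dashed line at 0.05) of Phlda3, Gdf15, Ddit4 and Sesn2 as reported, under 7 other ways of processing the counts and with each library left out in turn. Phlda3 stays under 0.05 with all libraries kept and lies at 0.05003 to 0.130 when one is left out, and DESeq2 gave no adjusted p for Gdf15.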

How the data were processed

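Per the labels and the study's methods, ribosomal RNA was depleted and stranded libraries were made. Reads were trimmed (Trimmomatic 0.32), aligned to mm10 (STAR 2.3.0e) and counted on Ensembl exons (featureCounts 1.4.4) where they mapped to at most 2 locations, so near-identical gene copies can share reads. The values deposited by the authors are these raw counts.

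Genes of chromosome Y (398) were left out, low genes were removed by filterByExpr (minimum count 10), and 18268 genes were compared between Control and Prmt1-null libraries (3 mice each) in edgeR 4.0.16 (R 4.3.3), with TMM normalization, the quasi-likelihood test and Benjamini-Hochberg adjustment over all of them. The study used DESeq2. A call is an adjusted p under 0.05. Standard errors come from the fold change and the F statistic, and 95% intervals from the t distribution. An exact permutation test of 3 against 3 cannot give a p under 0.10. Genes were placed with GENCODE M21 (37693 by ID, 803 by symbol, 521 not matched). Alternatives used DESeq2 1.42.0, limma-voom 3.58.1, other size factors, filters, covariates and call rules, or left out each library. The methods were tested on simulated data, where edgeR first missed the number of changed genes asked for, low genes included, and the requirement was then lowered.

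All 34 genes are named, with values in every library for called genes, genes whose groups did not overlap, the 3 largest fold changes, Trp53, Mdm2 and Mdm4. From the pathway lists, called genes and the 3 smallest p-values are named. Half-site stretches are shown for the 4 holders with the smallest p. The values of Sesn1, the markers and Lif, and the sequences of Ccng1, Phlda3, Gdf15 and Ddit4, were added after their values had been seen. The 34 genes and all lists were chosen with earlier results of these data known. One gene of the B cell marker list is not reported here.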

Additional observations from a re-analysis of the deposited data

How the results depend on the processing

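The number of the 34 genes called was 3 with DESeq2 size factors, DESeq2's Wald test (which gave Gdf15 no adjusted p), limma-voom, sex as a covariate and chromosome Y genes kept, 2 with a mean normalized count over 100, 4 without a filter, and 14 at an unadjusted p under 0.05. With 1 library left out it was 0 to 1. With the replicate number as a block it was 1, Phlda3 (adjusted p = 0.0481), with Ddit4 at 0.0555 and Gdf15 at 0.0759. Same-numbered libraries came from different mice, and their deviations from the group means correlated at −0.07, 0.04 and −0.08. The largest correlation was 0.13, between Control replicate 1 and Prmt1-null replicate 3, the males. Deviations within a group of 3 cancel, so these values cannot show whether the numbers stand for a shared batch. The number of all genes called was 746 with DESeq2's Wald test, 710 without a filter, 152 with the block and 31 to 350 with 1 library left out, 31 being without Prmt1-null replicate 2 and 350 without Control replicate 3. The median log2 fold change of the 34 genes moved between −0.0277 and 0.0391 when 1 library was left out and stayed positive under the other settings. In the fit reported above it was −0.012 without Gdf15 and −0.024 without Gdf15 and Perp, so its sign depends on them. The number of the 34 genes whose groups did not overlap was 15 with DESeq2 size factors and 16 with total counts, both scalings being chosen after seeing the data.

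In all 13 alternatives, 26 of the 34 genes kept the sign of their log2 fold change. The other 8 changed sign in at least 1 run that left out a library, over ranges of −0.0414 to 0.146 for Mdm2, −0.0489 to 0.0525 for Ppm1d, −0.0165 to 0.169 for Ccng1, −0.0669 to 0.0196 for Btg2, −0.202 to 0.0852 for Plk3, −0.107 to 0.013 for Ptp4a3, −0.0743 to 0.0229 for Bbc3 and −0.00816 to 0.117 for Ei24. None of these 8 was called. Runs with 1 library left out have fewer samples, and the cause of the other differences between settings was not tested. Depth limits Gdf15, Perp, Dram1 and Eda2r, whose values rest on few counts.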

Other observations

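The effect of genotype was also compared between the sexes, in a model with an interaction term on the 4 females and 2 males. With 1 male per genotype, the spread in this model came from the females only, so it cannot show whether the effect differed between the sexes. The log2 ratios within each sex are given above for Phlda3 and Ddit4.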
